A study of Homo sapiens with 4 samples.

Results

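Keratins are the intermediate filament proteins of epithelial cells, and their genes were followed here in arrays of PC3, a human line that was started from prostate cancer in bone. Members were all genes whose symbol is KRT followed by digits and an optional letter, without keratin-associated protein genes and pseudogenes. This gave 48 genes among the 18417 tested, 20 of type II and 28 of type I, while 7 others of the 55 in RefSeq (KRT6A, KRT6B, KRT6C, KRT17, KRT81, KRT82 and KRT86) were not analysed here. RNA of PC3 cells engineered to over-express PDEF (PC3-PDEF) was set against RNA of PC3 cells with the empty vector pBABE (PC3-SCR, called a control vector in the labels), with 2 Affymetrix arrays in each group. All cells grew in the same medium with serum. The number of arrays limits the precision, and no source tells whether the cultures behind them were separate, so that p-values may reflect technical spread alone.

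A keratin filament is built from pairs of 1 type I and 1 type II chain, so that epithelia are described by the pair they make. KRT8 and KRT18 form the pair of simple epithelia, to which luminal cells of the prostate belong, and KRT7 and KRT19 join them in many glands and ducts. KRT5 and KRT14 mark the basal cells of the prostate and of stratified epithelia, where KRT15 is also made, while KRT1 and KRT10 appear in the upper layers of the epidermis. Hair keratins build the hair shaft, and a separate group of keratins its root sheath. The labels name PDEF, the product of SPDEF, as the factor compared, and the comparison asks which keratin genes differed with it.

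The identity of the arrays bears on every value below. SPDEF had log2 signals of 6.85 and 6.73 in PC3-PDEF and of 5.99 and 6.06 in PC3-SCR. CTNNA1, a catenin gene described in other work as deleted in PC3, had 9.76 and 9.86 in PC3-PDEF against 4.77 and 4.07 in PC3-SCR, and STAT3, described likewise, had 9.06 and 9.05 against 4.51 and 4.70. The 2 groups thus differed in more than SPDEF, and an effect of PDEF on keratin genes and a difference between the cells of the groups cannot be told apart. Of 8 prostate luminal markers 5 were measured, and HOXB13 and STEAP2 lay above background in both groups and KLK2, KLK3 and ACP3 in neither. STEAP2 was lower, with 7.23 and 7.08 in PC3-PDEF against 7.88 and 7.92 in PC3-SCR (limma, adjusted p = 0.000702). ACP3 was called higher (adjusted p = 0.0216), and HOXB13, KLK2 and KLK3 did not pass. The luminal list averaged 5.52 to 5.58 per array in PC3-PDEF and 5.67 to 5.71 in PC3-SCR. Of 5 leukocyte, 5 endothelial and 6 fibroblast markers, 1 of each list lay above background in some group (CD68, KDR and COL1A1), each lower in PC3-PDEF. The fibroblast list averaged 4.72 to 4.79 per array in PC3-PDEF and 5.24 to 5.42 in PC3-SCR, and the endothelial list 4.16 to 4.17 and 4.80 to 4.97. Of 7 kidney lineage markers 6 were measured. EYA1 had 6.19 and 6.55 in PC3-PDEF against 4.38 and 4.55 in PC3-SCR, WT1 had 6.81 and 6.82 against 6.41 and 6.36, and both rose (adjusted p = 7.81e-05 and 0.00483). PAX8 fell, with 5.45 and 5.32 against 6.25 and 6.18 (adjusted p = 0.000415), and SIX2, LHX1 and PAX2 did not pass. Without PC3-PDEF replicate 1 or replicate 2 the call of WT1 was lost (adjusted p = 0.0509 and 0.0544). That list averaged 6.23 to 6.27 per array in PC3-PDEF and 5.92 to 5.93 in PC3-SCR. The part of these markers in the keratin results was not tested.

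Background was gauged with 341 olfactory receptor genes. The highest of them, OR2H2 on every array, had 5.65 and 5.75 in PC3-PDEF and 5.94 and 6.01 in PC3-SCR. Only KRT8, KRT18, KRT19, KRT7 and KRT14 exceeded it on both arrays of at least 1 group, and the other 43 keratins did not. The same rule was met by 10784 of the 18417 genes tested. By a looser gauge, the 95th percentile of the olfactory receptor genes (4.49 and 4.42 in PC3-PDEF, 4.58 and 4.54 in PC3-SCR), 24 of the 48 keratins were above background in some group. Signals of different genes come from different probes. The comparison with either gauge, on which all calls of background and all bounds rest, is therefore rough. Cross-hybridization between keratins of close sequence was not tested.

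**Figure D1:**
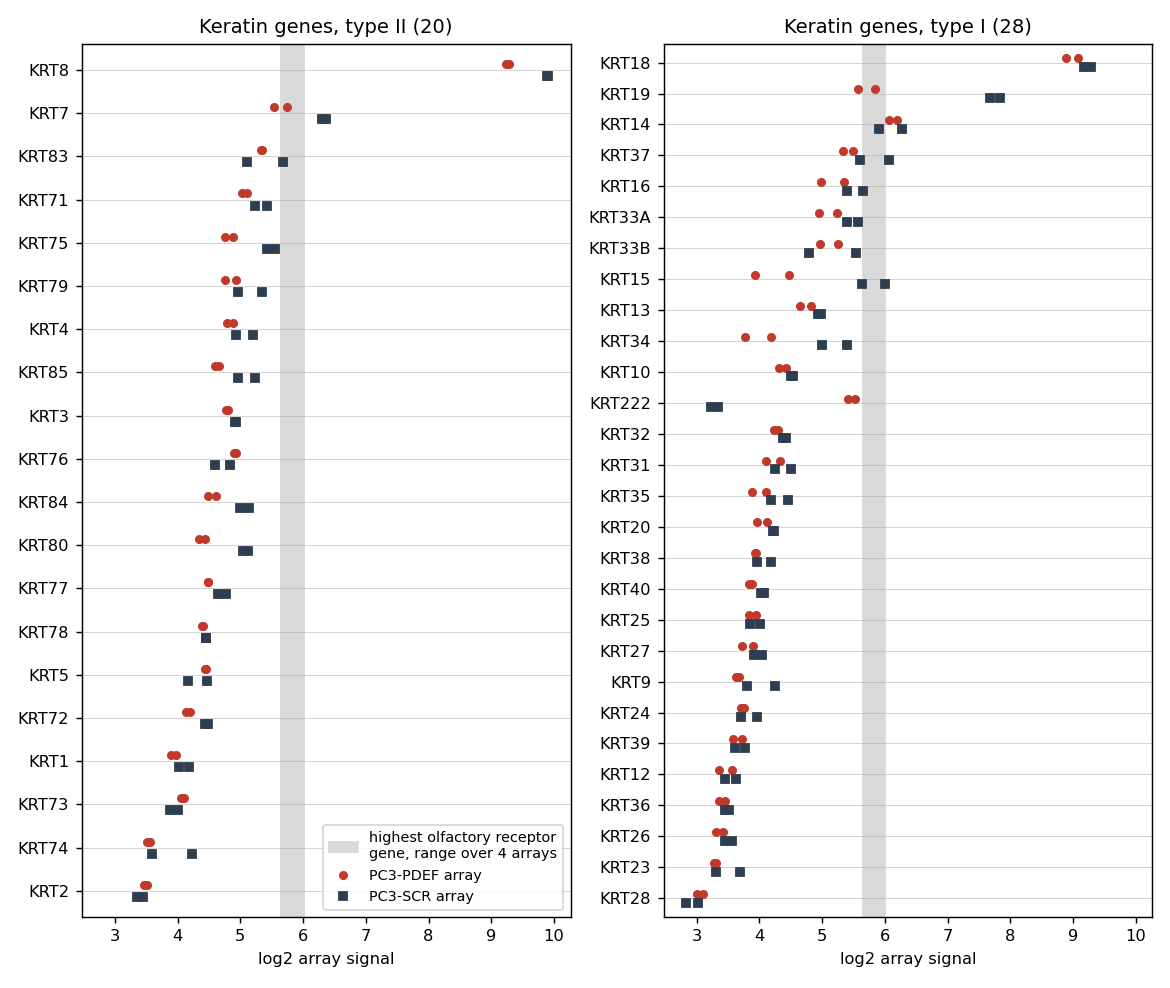
Log2 array signal (horizontal axis) of each keratin gene (vertical axis, ordered by mean) in PC3-PDEF (circles) and PC3-SCR arrays (squares), 2 of each, with type II genes on the left and type I genes on the right. The grey band spans the highest olfactory receptor gene over the 4 arrays, 5.65 to 6.01, and only KRT8, KRT18, KRT19, KRT7 and KRT14 lie beyond it on both arrays of a group.

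By the highest olfactory receptor gene most keratins were at background, though 24 of 48 were above the looser gauge. Those that changed were nearly all lower in PC3-PDEF. With limma and the Benjamini-Hochberg adjustment over all 18417 genes, 11 of 48 keratins fell at an adjusted p under 0.05, 1 rose and 36 stayed short of it. Lower calls made up 22.9% of keratins and 24.0% of all genes, so the number that fell was near the background rate in the values as deposited. The shares moved with the scaling and with the array left out. They were 39.6% of keratins and 30.3% of all genes after median centring, 25.0% and 14.5% without PC3-SCR replicate 1, 10.4% and 15.5% without PC3-SCR replicate 2, and 12.5% of keratins without either PC3-PDEF array, against 12.9% and 12.6% of all genes. Higher calls made up 2.08% of keratins and 26.7% of all genes. Of the 341 olfactory receptor genes, which stand for dim probe sets and were counted after the keratin values were seen, 12.3% were lower and 0.880% higher. The median log2 fold change (PC3-PDEF minus PC3-SCR, as throughout) was -0.19 for keratins, -0.12 for olfactory receptor genes and -0.05 for all genes. It was below 0 for 41 keratins, 85.4% of them, against 78.0% of olfactory receptor genes and 55.4% of all genes. Olfactory receptor genes, dim as most keratins were, thus showed a downward shift too, though a smaller one in the median and in the share called lower. Whether dim signal had a part in the keratin shift was not tested. Fitted log2 fold changes of at least 1 in size that passed the test were found for KRT19, KRT15 and KRT34 on the lower side and KRT222 on the higher side, while 6.07% of all genes were lower and 8.67% higher in this way. These sizes are not exact so close to background. For KRT34 and KRT222, with 1 group below the looser gauge, that gauge bounds the change only at 1.68-fold and 1.87-fold. Against the highest olfactory receptor gene both groups were at background for these genes, and no bound can be given. In RNA of whole cultures, fewer cells of a type and less RNA per cell cannot be told apart.

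**Figure D2:**
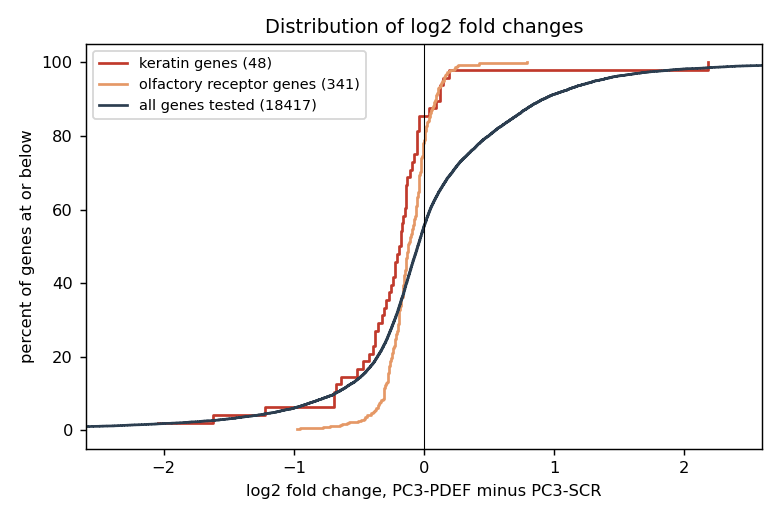
Cumulative percent of genes (vertical axis) by log2 fold change between PC3-PDEF and PC3-SCR (horizontal axis, cropped at both ends) for keratin genes, olfactory receptor genes and all genes tested. The keratin curve, with its median at -0.19, runs left of the curve of all genes over most of its course and crosses 0 at 85.4%.

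Simple epithelial keratins carried the clearest signals. KRT8, the type II chain of the simple epithelial pair, had log2 signals of 9.29 and 9.24 in PC3-PDEF and of 9.91 and 9.89 in PC3-SCR. The groups did not overlap, and all 4 arrays were far above background. Its level was 1.55-fold lower, a log2 fold change of -0.64 with a standard error of 0.0807 (limma, adjusted p = 0.000852). KRT18, its type I partner, was read from its probe set with the higher mean. The signals were 8.88 and 9.08 in PC3-PDEF and 9.29 and 9.17 in PC3-SCR, again above background everywhere and without overlap. The log2 fold change of this probe set was -0.25 (standard error 0.103, 95% interval -0.50 to 0.00), and the adjusted p of 0.0882 missed the threshold. The call turned on the processing, with an adjusted p between 0.0198 and 0.0492 after quantile normalization, after median centring, with a variance trend or among genes above the median level. The other fits did not call KRT18. The adjusted p was 0.222 with the mean over probe sets (log2 fold change -0.14) and 0.174 with the replicate number as a block. With 1 array left out the log2 fold change lay between -0.35 and -0.15. A second probe set of KRT18 read 8.87 and 8.93 in PC3-PDEF against 8.94 and 8.94 in PC3-SCR. Its log2 fold change was -0.04 (limma, p adjusted over probe sets 0.714). The size given for KRT18 thus depends on the probe set. By number the second probe set stands near that of KRT7 on chromosome 12, and the one used does not. Whether the one used reads KRT18 itself or a pseudogene was not tested. Whether KRT8 fell by more than KRT18 was not tested, nor was signal from the many pseudogenes of both.

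KRT19, the type I keratin of ducts and glands, was also lower. Its log2 signals were 5.85 and 5.57 in PC3-PDEF and 7.84 and 7.67 in PC3-SCR. Both PC3-SCR arrays were well above background and 1 of the 2 PC3-PDEF arrays was above it, at 5.85 against 5.65. The log2 fold change was -2.04 with a standard error of 0.122 (limma, adjusted p = 3.69e-05). This is 4.13-fold, a size that carries doubt so close to background. KRT7, a type II keratin found with KRT19 in many glands, had 5.74 and 5.54 in PC3-PDEF and 6.36 and 6.31 in PC3-SCR. As with KRT19, 1 PC3-PDEF array was at background level. It fell 1.62-fold (adjusted p = 0.00139), but without PC3-SCR replicate 1 the adjusted p was 0.0515. KRT80, a type II keratin of many epithelia, had 4.44 and 4.35 in PC3-PDEF and 5.13 and 5.05 in PC3-SCR (adjusted p = 0.000766), all below the highest olfactory receptor gene. Against the looser gauge its level was at least 1.55-fold lower, a bound in which PC3-PDEF signals below the gauge are set to it. KRT20, a keratin of intestine and urothelium, and KRT23 lay below even the looser gauge in both groups, with signals of 3.28 to 4.24, and did not pass the test. In all, 4 of the 7 simple epithelial keratins fell and none rose, where 24.0% of all genes were lower and 26.7% higher.

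Basal keratins differed among themselves. KRT15 had log2 signals of 3.93 and 4.48 in PC3-PDEF and of 5.64 and 6.01 in PC3-SCR. The groups did not overlap, but no array exceeded OR2H2 on the same array, the second PC3-SCR value being equal to it. The log2 fold change was -1.62 with a standard error of 0.204 (limma, adjusted p = 0.000814), and without PC3-SCR replicate 2 the adjusted p was 0.0606. KRT14, the type I keratin of basal cells, had 6.19 and 6.07 in PC3-PDEF and 6.28 and 5.90 in PC3-SCR. These values overlapped and lay just around the highest olfactory receptor gene. The log2 fold change was 0.04 (95% interval -0.29 to 0.37, adjusted p = 0.834), and its sign turned to -0.03 after quantile normalization or median centring. KRT5, the type II partner of KRT14, had 4.45 and 4.44 in PC3-PDEF against 4.17 and 4.47 in PC3-SCR, at background in both groups, with a log2 fold change of 0.12 (95% interval -0.16 to 0.41, adjusted p = 0.411). KRT16, induced in wounded and hyperproliferative epithelium, had 4.99 and 5.35 in PC3-PDEF and 5.65 and 5.39 in PC3-SCR (adjusted p = 0.0954). Its partner genes KRT6A, KRT6B and KRT6C were not analysed here. Of 6 prostate basal markers that are no keratins 4 were measured, and they split as well. LAMB3, a laminin chain gene, had 6.66 and 6.50 in PC3-PDEF and 10.55 and 10.41 in PC3-SCR, and ITGB4, an integrin gene, had 4.94 and 5.08 against 6.22 and 6.22, both lower (adjusted p = 3.03e-06 and 8.18e-05). DSC3, a desmosomal cadherin gene, was higher, with 8.81 and 8.85 against 6.26 and 6.20 (adjusted p = 4.29e-06), and DSG3 was at background in both groups. The list averaged 5.89 to 5.91 per array in PC3-PDEF and 6.54 in PC3-SCR, and its part in the basal keratin values was not tested.

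KRT222 was the 1 keratin that rose. It encodes a keratin-like protein that is shorter than typical type I chains and whose role is little known. Its log2 signals were 5.41 and 5.52 in PC3-PDEF and 3.23 and 3.34 in PC3-SCR. The groups lay far apart, with PC3-SCR below the median olfactory receptor gene (3.39 and 3.34) or equal to it and PC3-PDEF under the highest one. The fitted log2 fold change was 2.18 with a standard error of 0.0907 (limma, adjusted p = 1.03e-05). Since PC3-SCR was at background, only a bound can be given, and against the looser gauge the level in PC3-PDEF was at least 1.87-fold higher. By RefSeq gene order KRT222 stands at the edge of the type I cluster, next to SMARCE1, a chromatin remodelling gene. SMARCE1, looked up after the KRT222 values were seen, had 9.97 and 10.05 in PC3-PDEF and 8.76 and 8.53 in PC3-SCR (log2 fold change 1.37, adjusted p = 0.0001). KRT24, the keratin on the other side, had 3.71 and 3.75 against 3.97 and 3.71 and did not pass the test.

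Hair and root sheath keratins were dim throughout. Of 14 hair shaft keratins 4 fell (28.6%), of 10 root sheath keratins 2 fell (20.0%), and none rose, shares on either side of the 24.0% of all genes that were lower. KRT34, a type I hair keratin, had log2 signals of 3.77 and 4.18 in PC3-PDEF and of 5.00 and 5.40 in PC3-SCR. Only PC3-SCR was above the looser gauge, which gives a level at least 1.68-fold lower in PC3-PDEF (adjusted p = 0.00166, but 0.0745 without PC3-PDEF replicate 1 and 0.0672 without PC3-SCR replicate 2). KRT75, a type II keratin of the root sheath, had 4.88 and 4.75 in PC3-PDEF and 5.56 and 5.42 in PC3-SCR (adjusted p = 0.00141, and 0.051 without PC3-PDEF replicate 2). KRT84, a type II hair keratin, had 4.61 and 4.49 in PC3-PDEF and 4.99 and 5.14 in PC3-SCR (adjusted p = 0.00475). Each of these fell without overlap of the groups, at signals under the highest olfactory receptor gene. KRT85, a hair matrix keratin, had 4.66 and 4.60 in PC3-PDEF and 4.96 and 5.24 in PC3-SCR (adjusted p = 0.014). KRT33A, of the hair shaft, had 5.23 and 4.95 in PC3-PDEF and 5.57 and 5.40 in PC3-SCR (adjusted p = 0.0354). KRT72, of the root sheath, had 4.13 and 4.20 in PC3-PDEF and 4.44 and 4.48 in PC3-SCR (adjusted p = 0.0247). The calls of KRT33A and KRT72 were lost whichever array was left out, and those of KRT84 and KRT85 in 3 of 4 such fits each (adjusted p up to 0.251, 0.107, 0.0839 and 0.172 for KRT33A, KRT72, KRT84 and KRT85). KRT85 also had an adjusted p of 0.0598 with the replicate number as a block. Among olfactory receptor genes, also near background, 42 were called lower, and log2 fold changes reached -0.97.

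The 34 keratins not yet called or above background spanned signals of 2.83 (KRT28, a root sheath keratin) to 6.06 (KRT37, a hair keratin). All 12 keratins of suprabasal differentiation were among them, including the epidermal pair KRT1 and KRT10 and the mucosal pair KRT4 and KRT13, and none passed the test. KRT10 had 4.32 and 4.43 in PC3-PDEF against 4.53 and 4.50 in PC3-SCR. Their log2 fold changes lay between -0.42 (KRT37) and 0.20 (KRT76, of the palate), 29 of the 34 were negative, and the lowest adjusted p was 0.0631 (KRT71). Both PC3-PDEF arrays lay below both PC3-SCR arrays for 32 of the 48 keratins and above them for 4, where this was so for 39.7% and 35.0% of all genes and for 36.7% and 6.45% of olfactory receptor genes.

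The changes are given next by gene order, with no test of position. On chromosome 12, which holds the type II genes and KRT18, KRT80 and KRT7 fell, with log2 fold changes of -0.69 each, as did KRT85, KRT84 and KRT75. KRT83, which lies between KRT7 and KRT85, had 5.33 and 5.35 in PC3-PDEF against 5.11 and 5.68 in PC3-SCR and did not pass (adjusted p = 0.825). From KRT5 to KRT78, 1 of 13 measured genes, KRT72, passed the test. KRT8, which comes next, fell, and KRT18 at the far end did not pass. On chromosome 17, KRT15 and KRT19 are neighbours and both fell. The genes on either side of them, KRT13 and KRT9, had log2 fold changes of -0.22 and -0.38 that missed the threshold (adjusted p = 0.0964 and 0.0783). Between KRT222 and KRT33A, none of 11 measured keratins passed the test, and neither did KRT33B, which lies between KRT33A and KRT34 (adjusted p = 0.869). Type II genes had 7 of 20 lower and a median log2 fold change of -0.25, and type I genes 4 of 28 lower, 1 higher and a median of -0.17. The difference between the types was not tested.

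**Figure D3:**
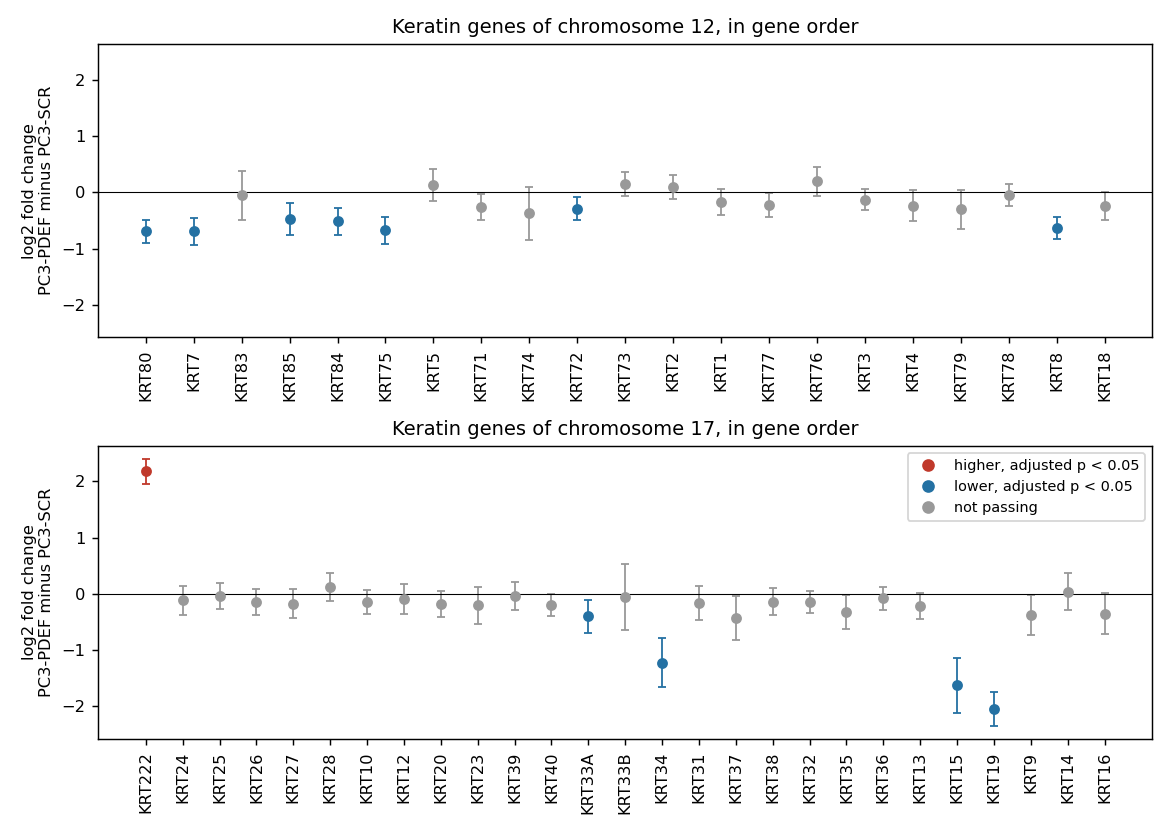
Log2 fold change between PC3-PDEF and PC3-SCR (vertical axis) of each keratin in its order along chromosomes 12 and 17 (horizontal axis, no scale), with the 95% interval from limma as a bar and 2 arrays per group. KRT222 has a fitted value of 2.18 at one edge of the chromosome 17 cluster, and the neighbours KRT15 and KRT19 have -1.62 and -2.04, sizes that are not exact near background.

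Start regions of keratin genes were read from RefSeq (GRCh38.p14), where 33 of the 48 genes matched. KRT7, KRT14, KRT15, KRT18, KRT19 and KRT222 had no window. Of the 5 keratins above the highest olfactory receptor gene only KRT8 is thus covered, and the shares below do not describe the others. KRT8 and KRT34 are shown because both fell and differ in the motifs of the 250 bases before the start used. Whether that start is the main one of each gene was not checked. In KRT8 the capitals mark a match, on the other strand, to CCGGAA, a core bound by many ETS factors, the family of PDEF. In KRT34 they mark TATAAA, the TATA box.
KRT8: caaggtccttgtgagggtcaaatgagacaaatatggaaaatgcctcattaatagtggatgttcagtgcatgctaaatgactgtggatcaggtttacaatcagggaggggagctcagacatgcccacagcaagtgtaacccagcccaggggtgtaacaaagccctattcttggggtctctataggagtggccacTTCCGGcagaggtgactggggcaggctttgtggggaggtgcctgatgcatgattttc
KRT34: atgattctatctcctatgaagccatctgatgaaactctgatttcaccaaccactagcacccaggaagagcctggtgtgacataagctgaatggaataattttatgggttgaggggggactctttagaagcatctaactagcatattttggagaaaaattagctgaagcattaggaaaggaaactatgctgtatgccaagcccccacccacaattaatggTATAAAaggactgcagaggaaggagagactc
The KRT8 stretch is chr12:52926470-52926719 and that of KRT34 is chr17:41382307-41382556, both on the minus strand and printed 5′ to 3′. Searched on both strands of 250 bases, TATAAA was present in 20 of 37 keratin windows (54.1%) against 10.7% of all 35116 windows, mostly in hair shaft and root sheath keratins. CCGGAA was found in 3 keratin windows (8.11%), those of KRT8, KRT36 and KRT74, against 14.5% of all windows. CCGGAT, a core preferred by PDEF, was found in 2 (5.41%), those of KRT36 and KRT40, against 5.85%. Of the motifs searched, each stretch printed held only the one marked in it. Of the 6 keratins that changed and had a window, 3 held TATAAA, 1 held CCGGAA and none held CCGGAT.

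Genes of the other intermediate filaments changed in both directions. Of 17 listed, 6 rose, 5 fell and 6 missed the threshold, with a median log2 fold change of -0.10, where 26.7% of all genes were higher and 24.0% lower. VIM, the vimentin gene of mesenchymal and many cultured cells, had log2 signals of 10.10 and 9.97 in PC3-PDEF and of 10.73 and 10.73 in PC3-SCR. It fell 1.62-fold (adjusted p = 0.000812). The nuclear lamin gene LMNA had 6.66 and 6.67 in PC3-PDEF and 7.80 and 7.76 in PC3-SCR (adjusted p = 7.61e-05), while LMNB1, a B-type lamin, had 9.41 and 9.44 against 8.72 and 8.67 (adjusted p = 0.000466). LMNA thus fell and LMNB1 rose, while LMNB2, the other B-type gene, had 8.93 and 8.95 in PC3-PDEF and 8.71 and 8.72 in PC3-SCR and missed the threshold (adjusted p = 0.0555). Of the neuronal filament genes NEFM, NEFL and INA rose. NEFH and PRPH did not pass (adjusted p = 0.766 and 0.337), with 4.50 and 4.13 against 4.43 and 4.31 for NEFH and 5.75 and 5.74 against 5.84 and 5.85 for PRPH. NEFM had 10.69 and 10.89 in PC3-PDEF against 4.80 and 5.24, at background, in PC3-SCR, a level at least 28.1-fold higher against the highest olfactory receptor gene. INA, the internexin gene, had 6.50 and 6.67 against 4.12 and 4.02, and NEFL had 8.92 and 8.95 against 7.08 and 6.96 (adjusted p = 8.07e-06 and 1.42e-05). NES, the nestin gene of progenitor cells, had 5.07 and 5.31 in PC3-PDEF and 6.27 and 6.29 in PC3-SCR, a level at least 1.49-fold lower. IFFO2, an intermediate filament family orphan gene, fell by 1.09 on the log2 scale, and SYNM, which encodes synemin, rose by 0.34 (adjusted p = 0.0348). SYNM lost its call in 3 of 4 fits with 1 array left out (adjusted p up to 0.231) and after quantile normalization or median centring, had an adjusted p of 0.0943 with the replicate number as a block, and IFFO2 lost its call in 2 of 4 such fits (up to 0.0789). IFFO1 and BFSP1, the other genes of the list that passed, did not exceed the highest olfactory receptor gene in either group, and BFSP1 had an adjusted p of 0.0854 with the block.

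Genes that tie keratins to desmosomes, hemidesmosomes and other structures also split. Of 14 listed, 4 rose (28.6%, against 26.7% of all genes), 5 fell (35.7%, against 24.0%) and 5 missed the threshold, with a median of -0.21. DSP, whose product desmoplakin anchors keratins at desmosomes, had log2 signals of 8.36 and 8.54 in PC3-PDEF and of 6.98 and 7.05 in PC3-SCR. The log2 fold change was 1.44 with a standard error of 0.0963 (adjusted p = 5.72e-05). PLEC, whose product plectin links keratins to hemidesmosomes, had 6.66 and 6.73 in PC3-PDEF and 8.65 and 8.65 in PC3-SCR, a 3.88-fold lower level (adjusted p = 1.04e-05). PKP1, a plakophilin of stratified epithelia, had 6.15 and 6.28 in PC3-PDEF and 9.60 and 9.39 in PC3-SCR, and was lower by 3.28 on the log2 scale (adjusted p = 4.65e-06). The plakophilin gene PKP3 fell by 0.84, the hemidesmosome linker gene DST by 0.69 and TCHP, whose product trichoplein binds KRT8 and KRT18 filaments, by 0.70. DSP, PLEC, PKP1, PKP3, DST and TCHP passed the test whichever array was left out. JUP, PKP2 and PNN rose by 0.30 to 0.37. JUP and PNN passed in none of those fits (adjusted p of 0.054 to 0.131 and of 0.0552 to 0.201), and PKP2 passed in 1, just under the threshold, and had an adjusted p of up to 0.0965 in the others. Fitted with a replicate block, JUP had an adjusted p of 0.0623 and PNN one of 0.0711. Of 10 genes of keratinocyte differentiation none was above background and none rose, and LORICRIN, a cornified envelope gene, was called lower at 4.15 and 4.06 in PC3-PDEF against 4.55 and 4.33 in PC3-SCR (adjusted p = 0.036, and up to 0.236 with 1 array left out).

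**Figure D4:**
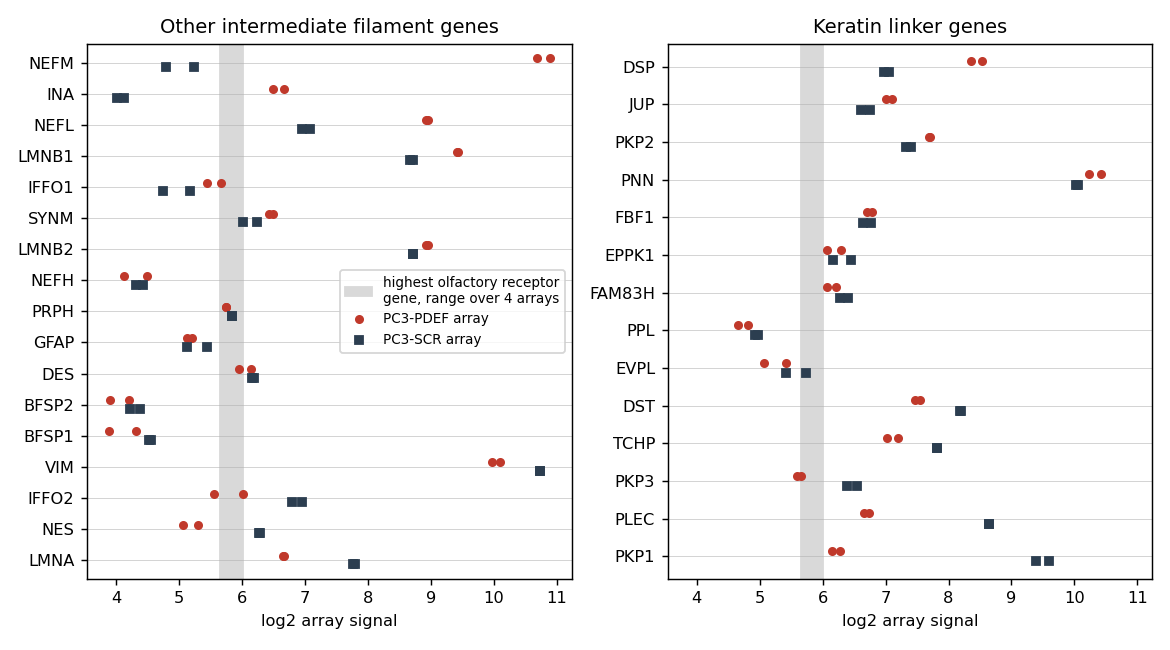
Log2 array signal (horizontal axis) of the other intermediate filament genes (left) and of genes whose products tie keratins to other structures (right), ordered by log2 fold change, in PC3-PDEF (circles) and PC3-SCR arrays (squares), 2 of each. NEFM lies at 10.69 and 10.89 in PC3-PDEF and at 4.80 and 5.24 in PC3-SCR, PKP1 at 6.15 and 6.28 against 9.60 and 9.39, and the grey band is the highest olfactory receptor gene, 5.65 to 6.01.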

How the data were processed

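The 4 arrays (Affymetrix HuGene-1.0-st-v1) were 2 of PC3-PDEF and 2 of PC3-SCR, grouped by their titles. Deposited were log2 signals of 33297 probe sets, for which the submitters' processing notes name Transcriptome Analysis Console. How the authors normalized them is not given in the sources used here, and the log2 base was inferred from values of 1.68 to 13.88. With array medians of 5.41 to 5.46, values were used as deposited. Names came from the platform annotation, with symbols updated from RefSeq (99.8% of single-symbol entries found). The 19460 with 1 symbol were kept, 1754 with several and 12083 unnamed here were not, and each of 18417 genes took its probe set with the highest mean. The 48 keratins had 51 probe sets, and those of KRT39 and of KRT40 hold equal values. Genes were tested with limma 3.58.1 in R 4.3.3 (lmFit and eBayes, two-sided, 2 residual and 4.23 prior degrees of freedom), adjusted over all genes by Benjamini-Hochberg, and called under 0.05. With 2 arrays a group, 0.333 is the smallest two-sided p of an exact permutation test. The fit was tested on simulated data.

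Named with all values were keratins above OR2H2 on both arrays of a group or passing the test, and the passing members of 3 further lists, of which those near background are given in part. The members and lists were chosen with earlier results of these data known. Alternatives were quantile normalization, median centring, genes above the median level only, a variance trend, the mean over probe sets, a replicate block, each array left out and the looser background gauge. A count was held to differ if it moved by over 1.5 times.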

Additional observations from a re-analysis of the deposited data

How the results depend on the processing

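KRT19, KRT8, KRT80 and KRT222 kept their direction and passed the test in every fit that included them. The count of 11 keratins lower was 10 to 12 after quantile normalization, with a variance trend, with the mean over probe sets or with the replicate block. It became 19 of 48 after median centring, where 5589 of 18417 genes were lower, 3 of the 3 keratins tested among genes above the median level only, where 3009 of 9208 genes were lower (with 0 keratins higher, since dim genes were not tested there), and 5 to 12 with 1 array left out. It was 6 without either PC3-PDEF array, 12 without PC3-SCR replicate 1 and 5 without PC3-SCR replicate 2. All genes numbered 3010 to 3635 higher and 2326 to 2856 lower in those fits. With the looser gauge, 1 keratin above background was higher and 10 were lower, in place of 0 and 3. Linker genes higher numbered 2 after quantile normalization, 2 with the replicate block and 1 to 2 with 1 array left out. The other intermediate filament genes lower numbered 3 above the median level and 3 to 5 with 1 array left out. Keratinocyte differentiation genes lower numbered 0 after quantile normalization, with a variance trend or above the median level, 2 after median centring, and 0 to 1 with 1 array left out. KRT14, not called, changed sign, with -0.03 both after quantile normalization and after centring on the median, and lay between -0.15 and 0.23 (-0.02 without PC3-PDEF replicate 1) with 1 array left out. The cause of these moves was not tested beyond the fewer genes or arrays in a fit. The replicate numbers did not pair the arrays (correlation of deviations across genes 0.02), and with them as a block 1 keratin was higher and 10 lower, and besides KRT85 the genes SYNM, BFSP1, JUP and PNN no longer passed (adjusted p = 0.0943, 0.0854, 0.0623 and 0.0711). Of 48 keratins, 43 did not exceed the highest olfactory receptor gene on both arrays of at least 1 group. Whether this limited their calls was not tested.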

Other observations

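Of 9 other probe sets whose annotation names a KRT symbol, 3 carry several symbols and the rest belong to pseudogenes or to an antisense gene. The antisense gene KRT10-AS1 had log2 signals of 5.74 and 5.92 in PC3-PDEF and of 4.76 and 4.47 in PC3-SCR (log2 fold change 1.22, adjusted p = 0.000337 from limma), while KRT10 itself, at background, did not pass the test. It was named after its values were seen. A probe set shared by MIR622 and KRT18 read 9.56 and 9.80 in PC3-PDEF and 10.04 and 9.90 in PC3-SCR, and one shared by KRT16 and its pseudogenes read 5.66 and 5.91 in PC3-PDEF and 5.83 and 5.85 in PC3-SCR. The pseudogene KRT17P5 had 2 probe sets, with 4.35 and 4.66 in PC3-PDEF against 5.00 and 4.84 in PC3-SCR on one and 4.69 and 5.02 against 5.26 and 5.33 on the other.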
